A study of Mus musculus with 14 samples.

Results

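The genes examined make, degrade or regulate polyamines, and their mRNAs were followed in an RNA sequencing experiment on 4T1 cells, a mouse triple-negative mammary carcinoma line, grown as spheroids. There were 10, chosen by symbol: Odc1, Amd1, Srm and Sms (synthesis), Sat1, Smox and Paox (breakdown), and Oaz1, Oaz2 and Azin1 (control of ornithine decarboxylase). All of them were present among the 19525 genes of the count table, and their counts ran from 236 to 17810 per library. Culture lasted 5 days, in lung-like medium (LLM). The controls, which expressed a non-targeting hairpin (shSCR), grew with 700 µM aspartate in 4 libraries (ASP shSCR) and without added aspartate in 3 (NoASP shSCR). Cells whose hairpin targeted Grin2d, encoding an NMDA receptor subunit (ASP shGRIN2D, 3 libraries), or Dhps, encoding deoxyhypusine synthase (ASP shDHPS, 4 libraries), were given the same aspartate. All cells, controls included, carried a lentiviral hairpin and had been selected with puromycin as mixed populations. How many hairpins per gene went into these spheroids is not given in the sources used here. RNA came from the cytosolic lysate of spheroids washed with cycloheximide, which halts ribosomes, so the values are mRNA levels and not protein levels or enzyme activity.

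Polyamines (putrescine, spermidine and spermine) are small positively charged molecules that bind RNA and DNA and are needed for growth. Ornithine decarboxylase makes putrescine from ornithine, and spermidine and spermine are built from it with aminopropyl groups donated by decarboxylated S-adenosylmethionine. Spermidine is also the substrate from which deoxyhypusine synthase builds hypusine on the translation factor eIF5A, which connects these genes to the Dhps knockdown.

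Deposited libraries held 12731123 to 23231378 counts, and the 10 members together took between 0.199% and 0.306% of them. Dhps stood at 19.4 ± 2.28 CPM (counts on a per-million scale; SD, n = 4) in ASP shSCR and fell to 6.93 ± 1.74 CPM (SD over 4 libraries) with shDHPS, without overlap. Grin2d was a low transcript (37 to 76 counts per library in ASP shSCR and ASP shGRIN2D). It was at 3.23 to 4.16 CPM in ASP shSCR and at 2.06 to 3.13 CPM in ASP shGRIN2D, without overlap, and the log2 fold change of -0.55 ± 0.28 (SE) did not pass (edgeR, Benjamini-Hochberg adjusted p = 0.516). Depletion of Grin2d mRNA was therefore not established by the test in these libraries. The epithelial genes Epcam, Krt8, Krt18, Krt14 and Cdh1 were detected throughout, whereas Ptprc, Pecam1, Cdh5 and Dcn were at or near 0. The summed level of the 5 epithelial genes was 4040 to 4120 CPM in ASP shSCR and 3990 to 4140 CPM in NoASP shSCR, but 3090 to 3330 CPM in ASP shGRIN2D and 3180 to 3720 CPM in ASP shDHPS. On the first principal component of the 10224 genes averaging 5 CPM or more, which held 32.3% of the variance, ASP shSCR replicate 2 (-25.8) and NoASP shSCR replicate 2 (-19.7) lay at one end and ASP shDHPS replicate 1 (27.6) at the other. These 3 libraries were kept. A value without 1 of them is given below for Odc1 and Paox. For Amd1, Srm and Azin1 with Dhps knockdown, ranges over alternative fits are given.

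Promoter sequences are shown for Odc1 and Paox, the members that changed with Dhps knockdown. They are the 250 bases before the first RefSeq start (build GRCm38.p6, 5′ to 3′ on the gene's own strand), with capitals marking TGACG or its reverse complement CGTCA, the core of the element bound by CREB, a factor linked to NMDA receptor signalling. The Odc1 window is chr12:17544623-17544872 (plus strand) and the Paox window is chr7:140125407-140125656 (plus strand).
Odc1: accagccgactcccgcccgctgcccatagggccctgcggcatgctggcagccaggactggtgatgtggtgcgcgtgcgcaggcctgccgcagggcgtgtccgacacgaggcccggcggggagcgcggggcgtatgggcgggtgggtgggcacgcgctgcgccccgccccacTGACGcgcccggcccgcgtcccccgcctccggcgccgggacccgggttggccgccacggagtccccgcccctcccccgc
Paox: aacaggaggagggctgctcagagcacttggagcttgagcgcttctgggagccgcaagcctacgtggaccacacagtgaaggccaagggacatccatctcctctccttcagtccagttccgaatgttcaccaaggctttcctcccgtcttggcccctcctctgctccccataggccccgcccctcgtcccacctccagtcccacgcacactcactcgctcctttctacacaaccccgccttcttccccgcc
The 2 windows differ in composition: 80% of the Odc1 bases and 61.6% of the Paox bases were G or C. TGACG or CGTCA occurred 1 time in Odc1, 79 bases before the start, and not in Paox. RefSeq windows were matched for 8 members, and 3 of them (Odc1, Amd1 and Oaz1) held TGACG or CGTCA, as did 19.8% of all 27025 genes with a window. The full palindrome TGACGTCA, which contains both shorter forms, was in 0 of the 8 and in 1.77% of all genes. The E-box CACGTG, the Myc-binding sequence, was in a window of 1 member (Sms) and of 6.86% of all genes. The GC box GGGCGG or its reverse complement CCGCCC was in 7 of the 8 (all but Oaz1) and in 35.4% of all genes. These matches describe letters only. Just the 250 bases before each start were searched, so sites elsewhere in a gene, Odc1 included, would be missed. The shares of all genes cover every gene with a window, whether or not it was expressed in these spheroids. Srm and Azin1 are not in the table of windows.

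Levels between genes were compared per kilobase of the longest coding transcript in GENCODE M21. In ASP shSCR spheroids the antizyme gene Oaz1 had the highest level, at 331 ± 43.3 CPM per kb (SD, n = 4; range 297 to 394). Odc1 followed at 232 ± 23.6 and Smox at 226 ± 23.9 CPM per kb (SD, n = 4 each), and the ranges of these 2 neighbours overlapped. A middle set of Amd1, Srm, Oaz2, Azin1 and Sat1 had means between 49.0 and 66.2 CPM per kb with overlapping ranges. Sms was lower, at 26.7 ± 1.61 CPM per kb, and Paox lowest, at 5.03 ± 1.14 CPM per kb (SD, n = 4). The first 5 places and the last 2 held the same genes in the other groups, while Azin1, Sat1 and Oaz2 exchanged places. A level per kilobase depends on the transcript taken: the coding transcripts of Paox run from 628 to 4655 bases and those of Sms from 321 to 3717 bases.

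**Figure D1:**
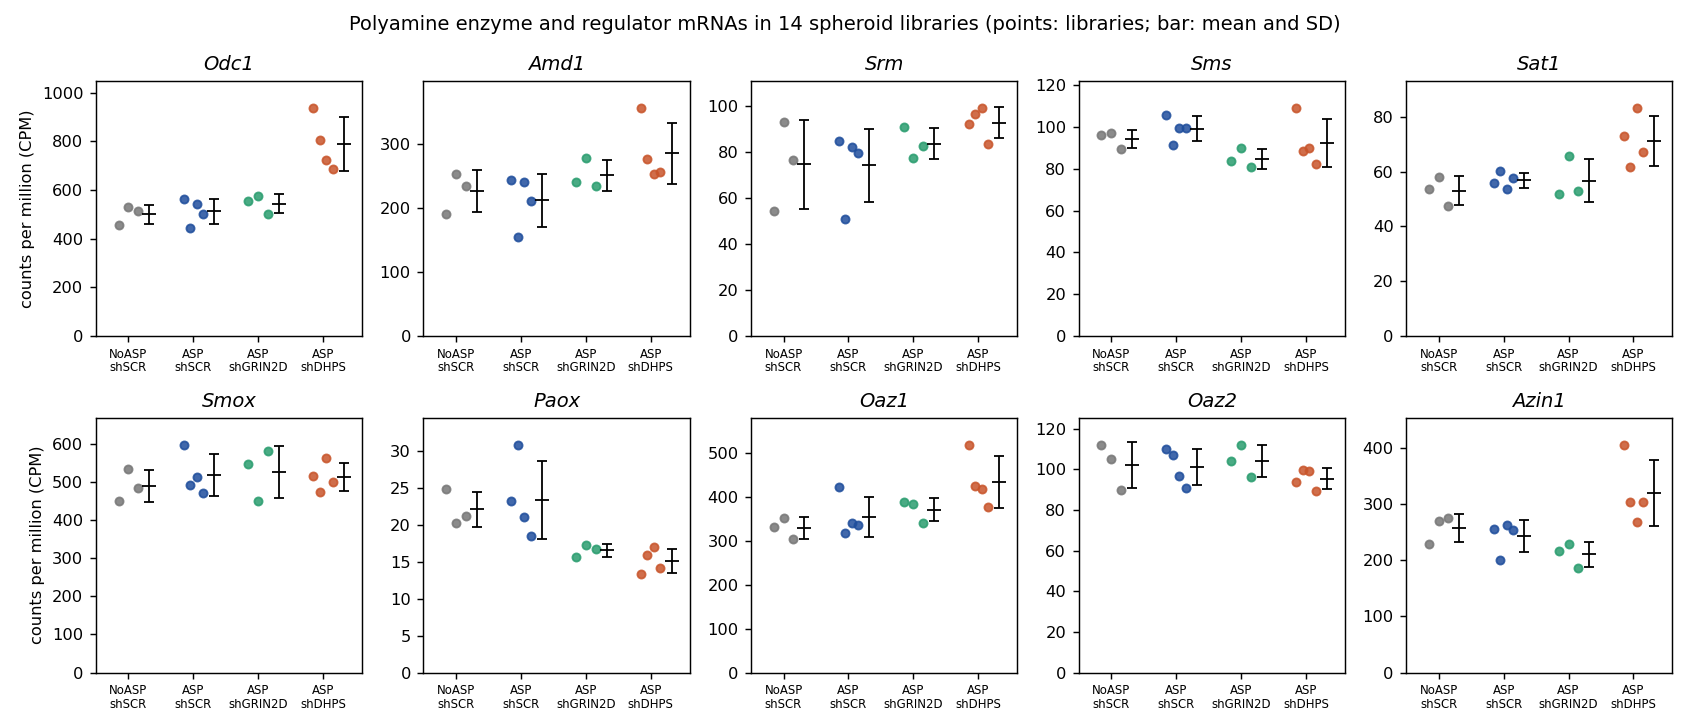
Level of each of the 10 mRNAs in CPM (vertical axes start at 0) in the 4 groups, with 1 point per library and a bar for the mean and SD. Odc1 was higher in all 4 ASP shDHPS libraries (687 to 936 CPM) than in any other library, and Paox was lower in all ASP shGRIN2D and ASP shDHPS libraries (13.4 to 17.3 CPM) than in any shSCR library.

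The Dhps comparison asks what happens to these genes when the enzyme that consumes spermidine for hypusine is depleted. Odc1 rose 1.54-fold and Paox fell to 0.643 of its control level, and the other 8 members did not pass the test. Thus 2 of 10 members were called by edgeR's quasi-likelihood test at a Benjamini-Hochberg adjusted p below 0.05 over all genes, beside 4.22% of all 19525 genes. At an unadjusted p below 0.05 the count was 7 of 10 (6 higher and Paox lower) beside 19.3% of all genes. Groups did not overlap for 5 of 10 members beside 11.1% of all genes. All members averaged over 5 CPM, and among the 10224 genes at that level 6.93% were called, 28.4% had an unadjusted p below 0.05 and 16.7% did not overlap. The median log2 fold change was 0.308 over the members and 0.005 over all genes. The members were chosen with earlier results of these data known, so these shares are descriptions and do not test for an excess. In bulk spheroids, fewer cells with a transcript and less transcript per cell cannot be told apart.

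Odc1 (ENSMUSG00000011179, chromosome 12) encodes ornithine decarboxylase, the rate-limiting enzyme of putrescine synthesis. Its level was 563, 444, 541 and 503 CPM in the ASP shSCR libraries and 936, 806, 722 and 687 CPM in the ASP shDHPS libraries. The lowest knockdown library was therefore above the highest control library. The log2 fold change was 0.62 ± 0.10 (SE; 95% interval 0.41 to 0.83; edgeR, Benjamini-Hochberg adjusted p = 0.00111). ASP shDHPS replicate 1 was the highest library, and without it the log2 fold change was 0.53 (edgeR, Benjamini-Hochberg adjusted p = 0.00249).

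Amd1 encodes S-adenosylmethionine decarboxylase, which makes the aminopropyl donor. It was at 244, 154, 240 and 211 CPM in ASP shSCR and at 356, 277, 253 and 257 CPM in ASP shDHPS. These groups did not overlap, but the log2 fold change of 0.43 ± 0.13 (SE) missed the threshold (edgeR, Benjamini-Hochberg adjusted p = 0.0715). Reads of Amd1 and its near-identical copy Amd2 may have been split between them: Amd2 held 187 to 584 counts per library against 2688 to 6773 for Amd1, and summing the copies changed no call among the members.

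Srm encodes spermidine synthase, and Sms encodes spermine synthase, which adds the next aminopropyl group. Srm was at 84.6, 50.6, 82.2 and 79.5 CPM in ASP shSCR and at 91.9, 96.4, 98.9 and 83.5 CPM in ASP shDHPS, and the groups overlapped. Its log2 fold change was 0.32 ± 0.14 (SE; edgeR, Benjamini-Hochberg adjusted p = 0.229). Sms was at 99.2 ± 6 and 92.3 ± 11.6 CPM (SD, n = 4 each), with a log2 fold change of -0.10 and a 95% interval of -0.29 to 0.08. The 2 synthases thus had estimates of opposite sign, neither called.

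Paox (ENSMUSG00000025464, chromosome 7) encodes the peroxisomal oxidase that returns acetylated polyamines to spermidine or putrescine. It was at 23.2, 30.8, 21.1 and 18.5 CPM in ASP shSCR and at 13.4, 15.9, 17.0 and 14.1 CPM in ASP shDHPS. The highest knockdown library was below the lowest control library, and the log2 fold change was -0.64 ± 0.14 (SE; 95% interval -0.92 to -0.36; edgeR, Benjamini-Hochberg adjusted p = 0.00813). ASP shSCR replicate 2 was the highest library, and without it the value was -0.48 (edgeR, Benjamini-Hochberg adjusted p = 0.0357). The summed epithelial genes were lower in the same knockdown libraries (3180 to 3720 against 4040 to 4120 CPM), and their part in the Paox result was not tested.

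The other breakdown genes did not pass. Sat1, encoding the acetyltransferase that tags spermidine and spermine for oxidation or export, was at 55.9, 60.3, 53.7 and 57.7 CPM in ASP shSCR and at 73.1, 61.6, 83.2 and 67.4 CPM in ASP shDHPS. Every knockdown library was above every control library, with a log2 fold change of 0.33 ± 0.10 (SE; edgeR, Benjamini-Hochberg adjusted p = 0.0774). Smox, encoding the oxidase that turns spermine directly into spermidine, was at 519 ± 54.9 CPM in ASP shSCR and 513 ± 37.4 CPM in ASP shDHPS (SD, n = 4 each). Its 95% interval for the log2 fold change ran from -0.22 to 0.18. Of the 3 breakdown genes, then, the estimate was above 0 for Sat1, near 0 for Smox and below 0 for Paox.

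Antizymes bind ornithine decarboxylase and send it to the proteasome, and the antizyme inhibitor Azin1 is an inactive relative of the enzyme that captures antizyme. Oaz1 was at 422, 318, 341 and 335 CPM in ASP shSCR and at 518, 425, 418 and 377 CPM in ASP shDHPS, with overlapping groups and a log2 fold change of 0.30 ± 0.10 (SE; edgeR, Benjamini-Hochberg adjusted p = 0.109). Oaz2, a second antizyme gene, was at 101 ± 9 and 95.5 ± 5.08 CPM (SD, n = 4 each), with a 95% interval for the log2 fold change of -0.27 to 0.10. Azin1 was at 255, 200, 262 and 253 CPM in ASP shSCR and at 405, 303, 268 and 304 CPM in ASP shDHPS. The Azin1 groups did not overlap, and the log2 fold change of 0.40 ± 0.12 (SE) lay just outside the threshold (edgeR, Benjamini-Hochberg adjusted p = 0.0512). Antizyme protein depends on polyamine-driven frameshifting, which mRNA counts do not measure.

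The number of calls depended on the tool and the fit. DESeq2 called 5 members (Odc1, Amd1, Sat1, Azin1 and Paox) beside 10.5% of the genes it gave an adjusted p. Without ASP shSCR replicate 1, edgeR called 4 (Odc1, Amd1, Oaz1 and Paox), beside 3.64% of all genes. Both replicate block fits called 7 members, beside 11% (all libraries) and 10.4% (2 groups) of all genes. Whether these libraries are paired by number was not established. Odc1 and Paox were called in all 18 alternative fits, with log2 fold changes of 0.53 to 0.68 and -0.729 to -0.475. Over the same fits Amd1 ranged from 0.3 to 0.502 (called in 4) and Srm from 0.174 to 0.389 (called in 2). Azin1 ranged from 0.267 to 0.477 (called in 5). Among the ASP shSCR libraries, Amd1, Srm and Azin1 were each lowest in replicate 2.

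**Figure D2:**
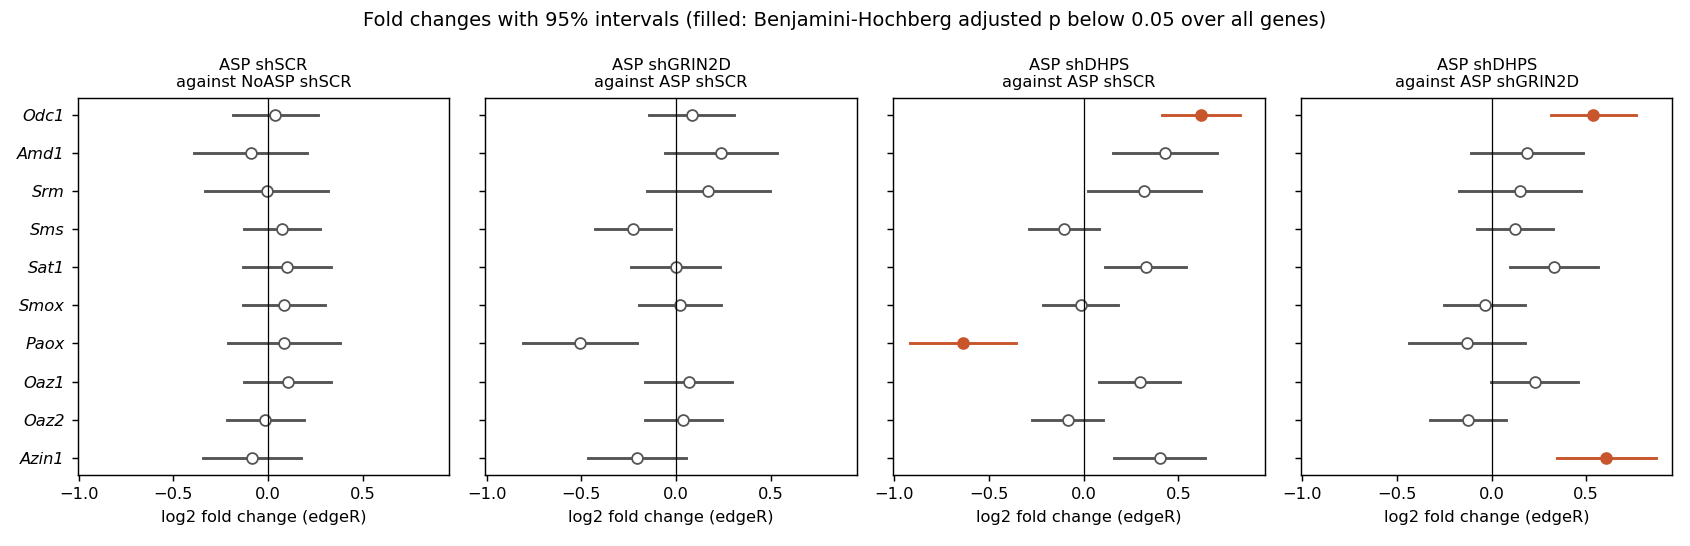
Log2 fold change of each mRNA (horizontal axes) with its 95% interval from edgeR in the 4 comparisons, filled where the adjusted p over all genes was below 0.05. With aspartate all 10 intervals include 0, and against ASP shSCR the filled points are Odc1 at 0.62 and Paox at -0.64 in ASP shDHPS.

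**Figure D3:**
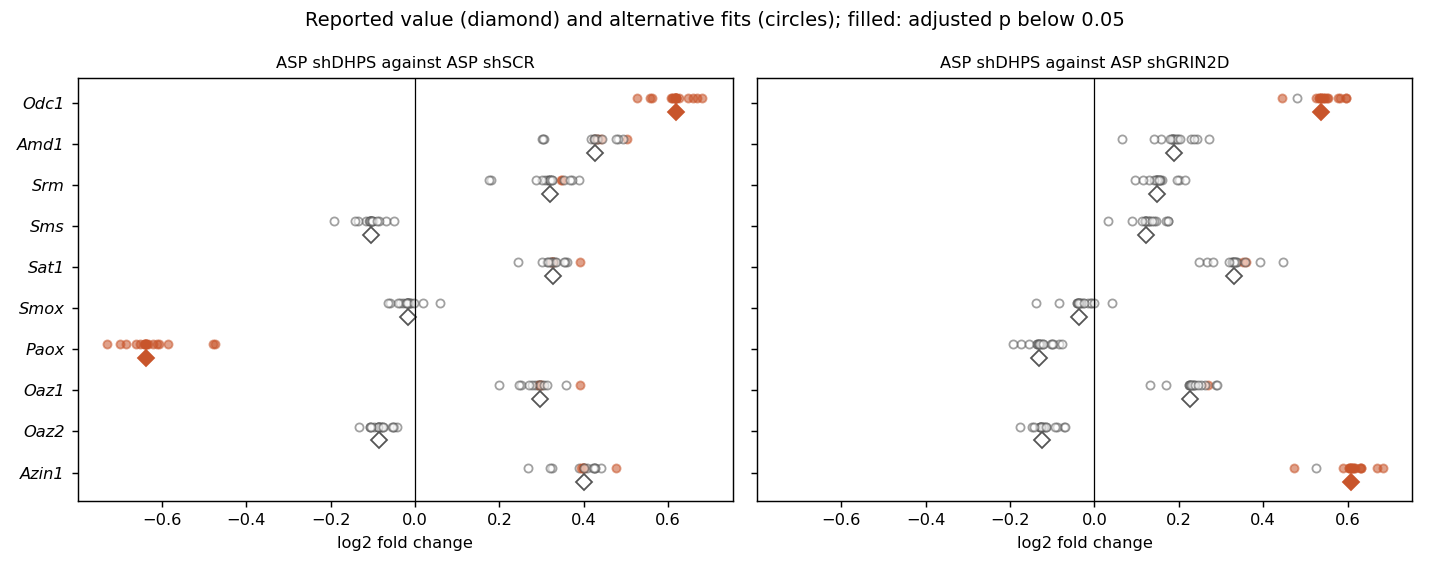
Log2 fold changes (horizontal axes) of each mRNA in the reported fit (diamonds) and in the alternative fits (circles) for ASP shDHPS against ASP shSCR and against ASP shGRIN2D, filled where the adjusted p was below 0.05. Odc1 and Paox are filled throughout on the left, and on the right Odc1 and Azin1 each have 1 open circle, the fit without ASP shGRIN2D replicate 3.

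Ratios of counts within a library need no scaling between libraries. The Odc1 to Oaz1 ratio was 1.46 ± 0.11 in ASP shSCR (SD, n = 4) and 1.82 ± 0.0695 in ASP shDHPS (SD, n = 4). Every ASP shDHPS library (1.73 to 1.90) was above all 10 other libraries (1.34 to 1.68). For Odc1 to Azin1 the order of the groups differed. This ratio was 1.86 to 2.22 in the 7 shSCR libraries, 2.52 to 2.69 in ASP shGRIN2D and 2.26 to 2.70 in ASP shDHPS, so that both knockdown groups lay above both control groups. Azin1 to Oaz1 was lowest in ASP shGRIN2D (0.546 to 0.594) and was 0.605 to 0.905 in all other libraries. For breakdown, the Smox to Paox ratio was 22.9 ± 4.62 in ASP shSCR, 32 ± 5.2 in ASP shGRIN2D (SD, n = 3) and 34.2 ± 3.62 in ASP shDHPS (SD, n = 4). The ratios were chosen after seeing the levels and carry no test.

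**Figure D4:**
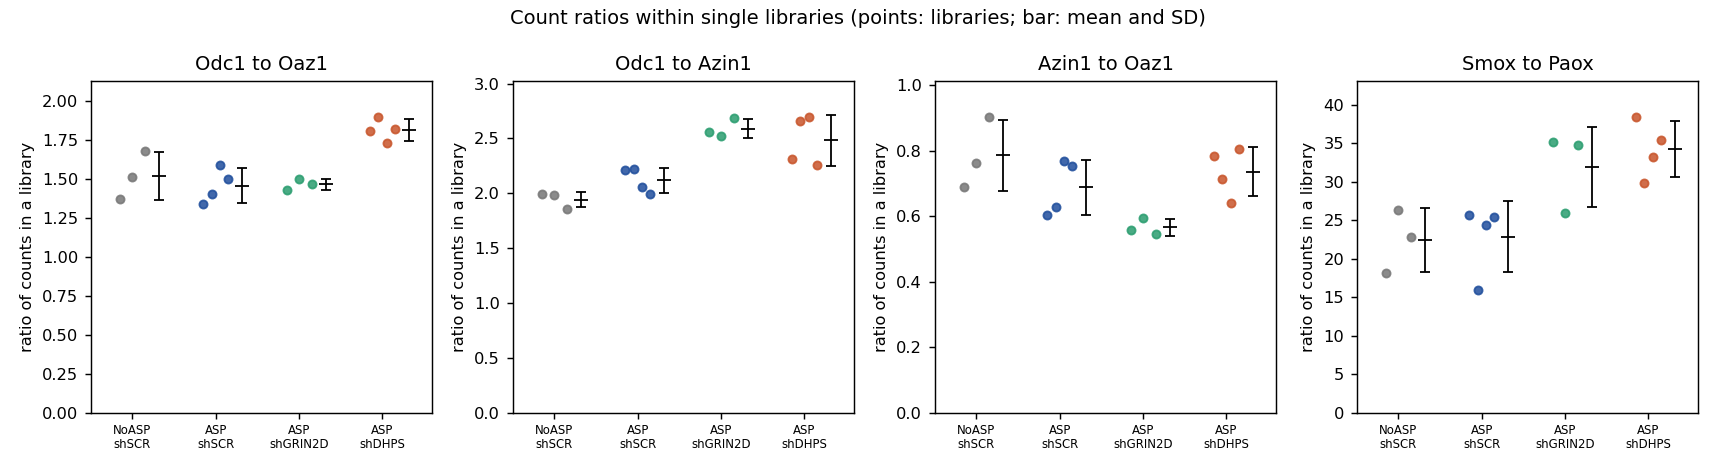
Ratio of the counts of 2 mRNAs in the same library (vertical axes start at 0), with 1 point per library and a bar for the mean and SD in each group. Odc1 to Oaz1 was highest in the 4 ASP shDHPS libraries (1.73 to 1.90), whereas Odc1 to Azin1 was higher in both knockdown groups (2.26 to 2.70) than in both shSCR groups (1.86 to 2.22).

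Grin2d knockdown was compared with the same ASP shSCR libraries, so its values and those for Dhps knockdown share their controls. No member was called by edgeR (0 of 10, beside 1.16% of all genes). At an unadjusted p below 0.05 there were 2 of 10, Paox and Sms, both lower, beside 10.4% of all genes. The same 2 genes were the ones whose groups did not overlap, beside 12% of all genes. Among genes averaging 5 CPM or more, 1.89% were called, 13.4% had an unadjusted p below 0.05 and 17.1% did not overlap. The median log2 fold change was 0.03 over the members and 0 over all genes. Paox was at 15.6, 17.3 and 16.7 CPM in ASP shGRIN2D, below all 4 ASP shSCR libraries. Its log2 fold change was -0.51 ± 0.15 (SE; edgeR, Benjamini-Hochberg adjusted p = 0.115), and DESeq2 called it (Benjamini-Hochberg adjusted p = 0.0427). Without ASP shSCR replicate 2 it was -0.35 (edgeR, Benjamini-Hochberg adjusted p = 0.347). Summed epithelial genes were again lower in these libraries (3090 to 3330 CPM), and their part in the Paox value was not tested. Sms was at 83.6, 90.1 and 80.7 CPM, with a log2 fold change of -0.23 ± 0.10 (SE; edgeR, Benjamini-Hochberg adjusted p = 0.403).

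The remaining 8 members had log2 fold changes from -0.21 (Azin1) to 0.24 (Amd1) with Grin2d knockdown. Odc1, at 554, 575 and 500 CPM, overlapped its controls and had a 95% interval of -0.14 to 0.31 on the log2 scale. Srm was at 83.5 ± 6.8 CPM, Sat1 at 56.8 ± 7.75 CPM, Smox at 526 ± 68.8 CPM, Oaz1 at 371 ± 26.4 CPM and Oaz2 at 104 ± 7.67 CPM (SD, n = 3 each).

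Aspartate was compared in control spheroids, ASP shSCR against NoASP shSCR, and this comparison uses the same ASP shSCR libraries. The log2 fold changes of the 10 members lay between -0.09 (Amd1) and 0.10 (Oaz1), and 0 of 10 were called by edgeR or DESeq2. The median was 0.055 over the members and 0.001 over all genes. Over all genes the share called was 0%. At an unadjusted p below 0.05 there were 0 of 10 beside 2.17% of all genes, the smallest p being 0.359 for Oaz1 in edgeR's test across all genes. Groups overlapped for all 10 members, beside 2.71% of all genes without overlap (1.91% at 5 CPM or more, where 0.597% had an unadjusted p below 0.05). Odc1 was at 456, 532 and 512 CPM without aspartate and 513 ± 52.1 CPM (SD, n = 4) with it. Taken over the members, the 95% intervals of this fit, which has no pairing, reached from -0.39 to 0.38 on the log2 scale. That is the size of difference the unpaired fit leaves possible, and no interval was computed for a paired fit. Paired by replicate number, the comparison also called 0 members. Beside this, 0.0102% of all genes were called with all libraries in the paired fit and 0.328% with the 2 groups alone.

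The knockdowns were also compared directly, ASP shDHPS against ASP shGRIN2D. The shSCR libraries do not enter this fold change, but through the joint fit they do enter the estimate of spread behind its p-values. Odc1 and Azin1 rose in ASP shDHPS, 2 of 10 called by edgeR beside 2.82% of all genes. At an unadjusted p below 0.05 there were 3 of 10, all higher, with Sat1 as the third, beside 14.8% of all genes. Groups did not overlap for Odc1 and Azin1 (2 of 10), beside 15.1% of all genes. At 5 CPM or more, 4.66% of genes were called, 20.5% had an unadjusted p below 0.05 and 21.5% did not overlap. The median log2 fold change was 0.169 over the members and 0.011 over all genes. Azin1 (ENSMUSG00000037458, chromosome 15) was at 217, 228 and 186 CPM in ASP shGRIN2D and at 268 to 405 CPM in ASP shDHPS, a log2 fold change of 0.61 ± 0.13 (SE; edgeR, Benjamini-Hochberg adjusted p = 0.008). Odc1 gave 0.54 ± 0.11 (SE; edgeR, Benjamini-Hochberg adjusted p = 0.00671). Both calls were lost without ASP shGRIN2D replicate 3, a fit in which the share of all genes called fell to 1.41%. The log2 fold changes were then 0.48 for Odc1 and 0.53 for Azin1, with adjusted p of 0.0632 and 0.078 (edgeR, Benjamini-Hochberg). Both were kept without replicate 1 or replicate 2 of that group, where the shares were 1.07% and 1.59%. Paox, low in both groups, differed by -0.13 with a 95% interval of -0.44 to 0.17.

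**Figure D5:**
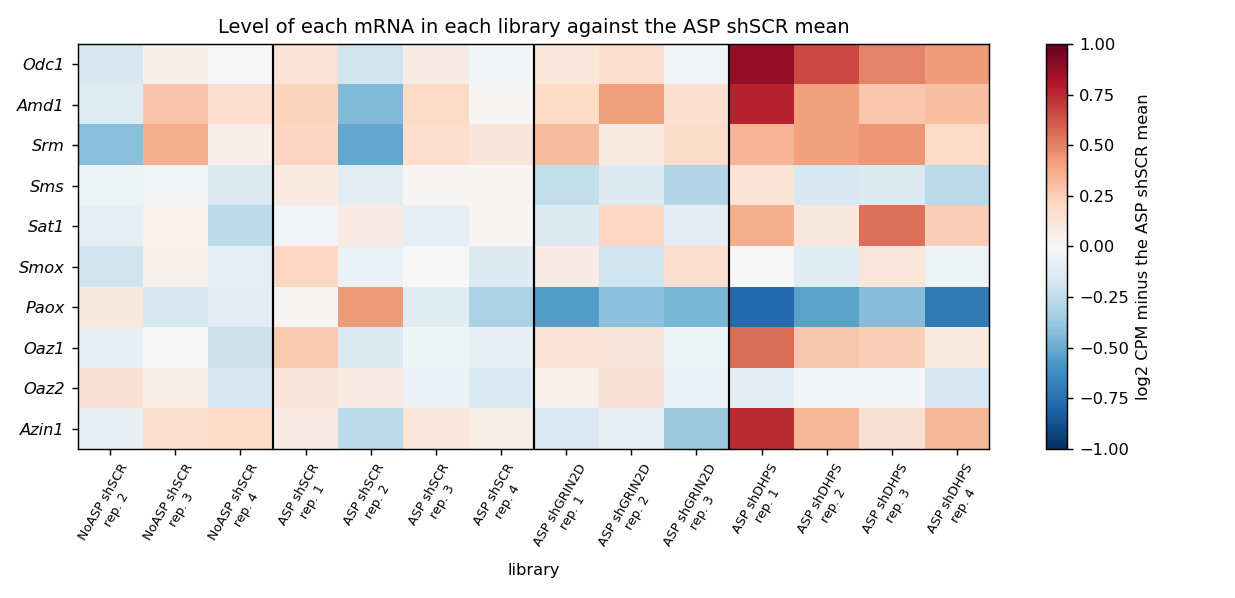
Log2 CPM of each mRNA in each of the 14 libraries minus the mean of the 4 ASP shSCR libraries, coloured from -1 (blue) to 1 (red), with columns ordered by group. Odc1 is red in all 4 ASP shDHPS libraries, with replicate 1 at 936 CPM, and Paox is blue in all 7 knockdown libraries (13.4 to 17.3 CPM).

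Members varied together to different degrees over the 14 libraries, which differ in group as well as in depth, so the coefficients are descriptions. Pearson's r of log2 CPM was 0.88 for Odc1 and Oaz1, 0.831 for Odc1 and Amd1, and 0.815 for Odc1 and Azin1. About the group means, these were 0.812, 0.926 and 0.894, so the libraries of a group also spread along this direction. Genes outside the list reached a higher r with Odc1 over the libraries, such as Aif1l at 0.959 (0.881 about the group means). Varying with Odc1 was therefore not particular to the members. Paox went the other way, with r of -0.757 against Odc1 and -0.816 against Amd1. Smox had r between -0.121 and 0.464 with every other member. Odc1 and Sat1 had r of 0.69 over the libraries but -0.031 about the group means.

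Among 9775 other genes, those most like each member over the 14 libraries were listed by Pearson's r of log2 CPM. For Odc1 they were Aif1l (0.959), Ddx41 (0.958) and Cdc42se2 (0.956). For Azin1 they were Arl4a (0.969), Ndc1 (0.963) and Tubb6 (0.949). The genes most like Paox were Mmp9 (0.938), Igsf9 (0.92) and Krt19 (0.914), of which Krt19 is an epithelial keratin and Mmp9 a matrix-degrading protease. For Sat1 they were Ddt (0.92), Mfsd11 (0.885) and Psma2 (0.884).

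A wider list of 49 genes around polyamines held 40 genes of the table, 38 of them with more than 3 counts in some library. With Dhps knockdown 4 of the 40 were called, 3 higher and Dhps itself lower, beside 4.22% of all genes, and 12 of the 40 had an unadjusted p below 0.05, beside 19.3%. The median log2 fold change was 0.075 over the 38 and 0.005 over all genes. This list, too, was chosen with earlier results of these data known, so its shares are descriptions. Atp13a4, of the P5B transporter family to which polyamine transporters belong, was a low transcript (42 to 77 counts per library in ASP shSCR). It was at 2.34 to 5.81 CPM in ASP shSCR and at 7.93 to 11 CPM in ASP shDHPS. The log2 fold change was 1.45 ± 0.23 (SE; edgeR, Benjamini-Hochberg adjusted p = 0.00111). Its relatives Atp13a3 and Atp13a2 were not called. Atp13a3 was at 192 ± 7.08 and 196 ± 23.3 CPM (SD, n = 4 each; log2 fold change 0.04). Atp13a2 was at 27.5 ± 1.71 and 22.7 ± 5.21 CPM (SD, n = 4 each; log2 fold change -0.28). Dohh, encoding the hydroxylase that completes hypusine after deoxyhypusine synthase, rose from 43.6 ± 5.78 to 59.9 ± 4.29 CPM (SD, n = 4 each; log2 fold change 0.46). Slc3a2, the heavy chain of several amino acid exchangers, rose from 150 ± 11 to 187 ± 12.6 CPM (log2 fold change 0.31; edgeR, Benjamini-Hochberg adjusted p = 0.042).

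With Dhps knockdown, Dhps itself differed by -1.48 ± 0.15 (log2, SE). Eif5a, whose protein carries hypusine, was at 1180 ± 161 and 1400 ± 94 CPM (SD, n = 4 each), not called (log2 fold change 0.25). Myc, a transcription factor known to drive Odc1, was at 137 ± 24.7 and 183 ± 13.9 CPM, without overlap and not called (log2 fold change 0.42 ± 0.14, SE; edgeR, Benjamini-Hochberg adjusted p = 0.0843). None of 9 genes of ornithine and arginine supply and none of 11 of the methionine cycle and salvage was called by edgeR. The rest of the 12 with an unadjusted p below 0.05, named after their values were seen, were Amd2 (log2 fold change 0.47), Azin2 (-0.47), Asl (-0.35), Mtrr (0.30), Eif5a2 (0.29) and Max (0.19), beside Eif5a and Myc above. Azin2, a second antizyme inhibitor, was at 18.9 ± 3.93 CPM in ASP shSCR and 13.6 ± 1.9 CPM in ASP shDHPS (SD, n = 4 each), with overlapping groups. DESeq2 called Amd2, Azin2 and Asl as well, 7 of the 40 in all, beside 10.5% of the genes it gave an adjusted p. Against ASP shGRIN2D, 3 genes of the list were called: Atp13a4 (log2 fold change 1.59), Dohh (0.42) and Dhps (-1.58), beside 2.82% of all genes, and 9 of the 40 had an unadjusted p below 0.05, beside 14.8%. With Grin2d knockdown 0 of the 40 were called by edgeR, beside 1.16% of all genes. An unadjusted p below 0.05 was reached by 4 of the 40, near the share of all genes (10.4%), and DESeq2 called 1, Asl. With aspartate 0 of the 40 were called by edgeR or had an unadjusted p below 0.05.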

How the data were processed

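Per the labels and the study's methods, the authors made mRNA libraries with a stranded kit, trimmed reads with Trim Galore 0.6.6, checked them with FastQC 0.11.9, aligned with STAR 2.6.1 to GRCm39 and quantified with Salmon 1.4.0. The deposited values used here are rounded counts per gene. The authors' DESeq2 1.34.0 comparison tables (log2 fold changes, p-values and rankings) were not used. Counts of all 14 libraries were fitted together in R 4.3.3 with edgeR 4.0.16, using TMM scaling and no covariate beyond group. Calls were made at a Benjamini-Hochberg adjusted p below 0.05 across 19525 genes. CPM use TMM library sizes (library totals 12731123 to 23231378 counts). The members and lists were chosen with earlier results of these data known. All members were named, with every called gene of the wider list, Myc, Dhps and Dohh, and the 3 most alike genes (mean of at least 5 CPM) for called members and Sat1.

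Replicate numbers come from the labels, which do not say what they share. They run from 1 to 4 in ASP shSCR and ASP shDHPS, from 2 to 4 in NoASP shSCR and from 1 to 3 in ASP shGRIN2D. The study's methods speak of 4 replicates per condition, so 2 groups lack a numbered replicate here. Deviations from group means correlated at 0.514, 0.287 and 0.203 for same-numbered shSCR libraries with and without aspartate. These libraries were taken as paired, but only the replicate block fits use the pairing. The aspartate fold changes, intervals and p-values in the Results come from the fit by group only. The other comparisons did not reach 0.1 in every pair. Nothing says that replicates were separate infections, so p-values measure the spread between these spheroid samples. Alternatives were DESeq2 1.42.0, other scalings and filters, a replicate block, and leaving out libraries. The code was tested on simulated data. Promoters and transcript lengths are from RefSeq and GENCODE on GRCm38, matched by symbol and gene identifier.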

Additional observations from a re-analysis of the deposited data

Results flagged for a closer look

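In ASP shSCR, replicate 2 stood apart from the other 3 libraries for 2 members: Srm was at 50.6 CPM there against 79.5 to 84.6 CPM, and Azin1 at 200 CPM against 253 to 262 CPM. The gap to the nearest library was 0.851 and 0.847 of the group's range, over the 95% critical value of Dixon's test for 4 libraries. Of 20 groups of 4 libraries examined, 2 stood out, where chance gives about 1 in 20 for separate groups. These groups are genes measured in the same libraries, and both came from 1 library, so the count is not a test. Amd1 and Odc1 were also lowest, and Paox highest, in this library of the group.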

How the results depend on the processing

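Of 690 recomputed member values, 630 kept their direction and side of the threshold, 24 gained a call, 2 lost one and 34 changed sign, none of the latter with a call. With Grin2d knockdown, DESeq2 called 1 member and 1 gene of the wider list, and each replicate block fit called 1 member (Paox in all 3), beside all-gene shares of 3.48% for DESeq2 and 3.13% and 1.86% for the block, against 1.16% as reported. With Dhps knockdown, DESeq2 called 5 members and 7 genes of the list, both replicate block fits called 7 members, and leaving out a library gave 2 to 4 (4 without ASP shSCR replicate 1). The share of all genes called was 4.22% as reported, 11% and 10.4% with the block, and 2.11% to 4.58% with a library left out. For ASP shDHPS against ASP shGRIN2D, the block over all libraries called 4, and leaving out a library gave 0 to 2 (0 without ASP shGRIN2D replicate 3). All-gene shares were 2.82% as reported, 7.52% with that block, and 1.07% to 2.96% with a library left out (1.41% without ASP shGRIN2D replicate 3). These groups were not taken as paired by number. Same-numbered libraries were each other's best match in 2 of 4 pairs for Dhps knockdown and 0 of 3 for Grin2d knockdown. The figure was 1 of 3 between the knockdowns and 2 of 3 for aspartate. With Dhps knockdown, deviations of same-numbered libraries correlated at 0.258, 0.195, 0.201 and 0.04, so an absence of pairing was not shown there. With aspartate the block called 0 members, beside 0.0102% (all libraries) and 0.328% (2 groups) of all genes, against 0% as reported. The cause of these shifts was not tested.

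Sign changes were at small values. With aspartate, the block gave Odc1 -0.016 (all libraries) and -0.01 (2 groups), and Oaz2 was 0.024 without both shSCR replicate 2 libraries. Leaving out a library gave -0.025 to 0.1 (Odc1), -0.202 to 0.035 (Amd1), -0.189 to 0.183 (Srm), -0.073 to 0.178 (Paox) and -0.099 to 0.057 (Oaz2). With Grin2d knockdown, Smox was -0.001 by library size only, -0.007 and -0.026 with the block, and -0.003 without both replicate 2 libraries. Oaz2 was -0.008 in both block fits, and Sat1 was 0.026 without both replicate 2 libraries. Leaving out a library gave -0.057 to 0.123 (Smox), -0.015 to 0.091 (Oaz2) and -0.121 to 0.06 (Sat1). Smox ranged from -0.064 to 0.058 with Dhps knockdown and from -0.139 to 0.041 against ASP shGRIN2D. With 3 or 4 libraries a group, standard errors of the members reached 0.16 on the log2 scale, which limits the differences that could be called. Without ASP shDHPS replicate 1 or both shSCR replicate 2 libraries, Odc1 and Paox stayed called with Dhps knockdown. Summing Amd1, Oaz1, Oaz2 and Sms with their copies was chosen after seeing the data and changed no call.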
